A study of Mus musculus with 9 samples.

Results

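Ttr, Folr1, Clic6, Kl, Prlr, Otx2 and Sostdc1 are 7 genes that serve as markers of the choroid plexus, and they are described here in tissue punches aimed at the paraventricular nucleus of the hypothalamus (PVN) of the mouse. They were picked by gene symbol from a raw count table of 27179 genes. All 7 had enough counts to be tested, together with 17344 genes in all. The bulk RNA sequencing compared 3 groups of 3 male wild-type C57BL/6 mice (the substrain C57BL/6J in the study's methods). Control mice ate a control diet, Chow in the labels, with 16% of calories from fat for 12 weeks, HFD mice ate a diet with 60% of calories from fat for 12 weeks, and HFD+Mino mice ate that same high-fat diet and received minocycline, a tetracycline antibiotic, over the final 6 weeks (40 mg/kg/day). The labels give the age of every animal as postnatal day 35, which is the age at which the study's methods start the diets. Each library came from 1 mouse, so a p-value measures the spread between mice. Minocycline was given with the high-fat diet and in no group on the control diet, and whole punches hold neurons, glia, vessels and any ventricular lining that was taken with them.

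The choroid plexus is a frond of epithelium around a vascular core that floats in the brain ventricles, secretes cerebrospinal fluid and forms the barrier between blood and that fluid. Its epithelial cells pass hormones, vitamins and ions from blood to the fluid through carriers and receptors. The PVN borders the third ventricle, whose wall is lined by ependymal cells, ciliated glia that are a different cell type from choroid plexus epithelium. The 7 genes cover a secreted carrier (Ttr), uptake and channel proteins (Folr1, Clic6), a co-receptor and a receptor (Kl, Prlr), a transcription factor (Otx2) and a secreted antagonist (Sostdc1). None is exclusive to choroid plexus, and Prlr, for example, is also known from hypothalamic neurons.

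Total counts ran from 17728590 (HFD replicate 1) to 42326213 (Control replicate 1), and mitochondrial genes took 1.21% to 6.21% of them. The library labelled Control replicate 1 went against its tissue label. Avp, the vasopressin gene of PVN neurons, stood at 0.15 CPM (counts scaled to the library size) there and between 157 and 28049 CPM in the other 8 libraries, and Oxt (oxytocin) stood at 0.77 CPM against at least 427. Otp, a transcription factor of these neurons, had 0 counts there. Of 6 PVN neuron genes, 5 were at their lowest in that library, and Crh, at 20.6 CPM, lay within the range of the others (14.4 to 153). Lmx1a, a gene of the brain roof that is also on the list of other choroid plexus genes used below, was at 19.3 CPM against at most 0.45. Genes of the thalamus and habenula pointed no one way, with Prkcd at 266 CPM against 13.4 to 60.6, Zic1 lowest of all libraries at 2.53 CPM and Tcf7l2 at 36.9 CPM against 16.1 to 306. HFD+Mino replicates 1 and 2 also stood apart, with Avp at 28049 and 22180 CPM against 1218 CPM in replicate 3 of that group. These marker genes were picked after their values were seen. For each member a fitted value without Control replicate 1 is therefore also given.

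The main markers go against reading these punches as choroid plexus. Ttr, the carrier of thyroid hormone and of retinol-binding protein and normally among the most abundant messages of choroid plexus epithelium, had 5 to 77 counts per library. Per length of exon, its mean level was 0.890 CPM per kb, and only 23.4% of 15626 tested genes with a known length were lower. The median of those genes was 3.89 CPM per kb. Aqp1, the water channel of the epithelium's ventricular face, had at most 4 counts in any library, and Tmem72 and Slc4a5, a transmembrane protein and the sodium bicarbonate transporter of the same epithelium, had at most 12 and 15. These 3 were named after their values were seen. Of 29 other choroid plexus genes with a known length, 7 had a mean above the median of tested genes and 18 had a mean below Ttr. The 7 genes are therefore named singly below, and no result is credited to choroid plexus cells. In bulk tissue, fewer cells of a type and less RNA per cell cannot be told apart.

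Averaged over all 9 libraries, the levels per length of the 7 genes ran in the order Sostdc1, Clic6, Prlr, Folr1, Ttr, Otx2 and Kl. Sostdc1 had a mean of 3.87 CPM per kb over 9 libraries, Clic6 2.56, Prlr 2.45 and Folr1 2.00. Otx2 had 0.847 CPM per kb and Kl 0.304. The range over libraries was wider than the gap between neighbours in this order: Clic6 spanned 0.437 to 6.51 CPM per kb and Prlr 0.993 to 6.53, while Ttr spanned 0.105 to 1.77 and Otx2 0.0176 to 1.75. The order differed between groups: Sostdc1 (2.80 CPM per kb) led in Control, Clic6 (4.42) and Prlr (3.71) in HFD, and Sostdc1 (5.59) and Folr1 (4.09) in HFD+Mino. No member's mean over the 9 libraries exceeded the median of tested genes, while the group means of Clic6 in HFD and of Sostdc1 and Folr1 in HFD+Mino did.

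**Figure D1:**
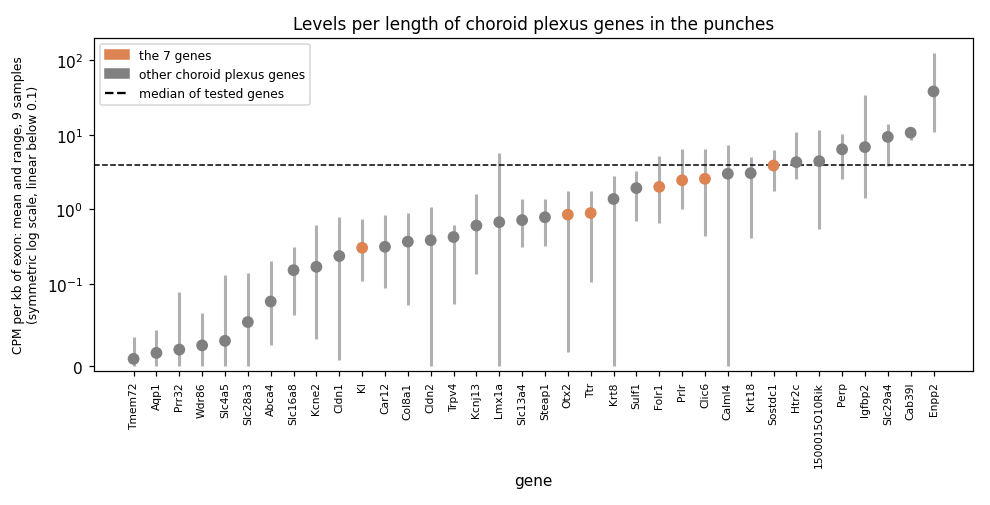
Level per length of choroid plexus genes in the PVN punches, as CPM per kb of exon on a symmetric log axis, with a dot for the mean of the 9 libraries and a line from the lowest to the highest library. The means of the 7 genes (orange) lie below the dashed median of tested genes (3.89), and Aqp1, Tmem72 and Slc4a5 lie near 0 at the left.

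The 3-way test asked whether diet and minocycline altered any of the 7 genes. It called a gene at a Benjamini-Hochberg FDR under 0.01 with a group mean 1.5-fold or more away from the overall level. It called 1 of the 7, Folr1, while 2.17% of tested genes were called. No member was called in a pairwise comparison, where 1.74% of genes were called for HFD against Control, 4.15% for HFD+Mino against HFD and 0% for HFD+Mino against Control. That last count of 0 genes came from edgeR's quasi-likelihood test, in which 3697 genes had an unadjusted p under 0.05, and DESeq2 called 276. Groups did not overlap for 3 of 7 members in HFD against Control (42.9%, against 35.7% of all genes), 3 of 7 in HFD+Mino against HFD (42.9%, against 46.7%) and 2 of 7 in HFD+Mino against Control (28.6%, against 19.1%). These shares lay near those of all genes.

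**Figure D2:**
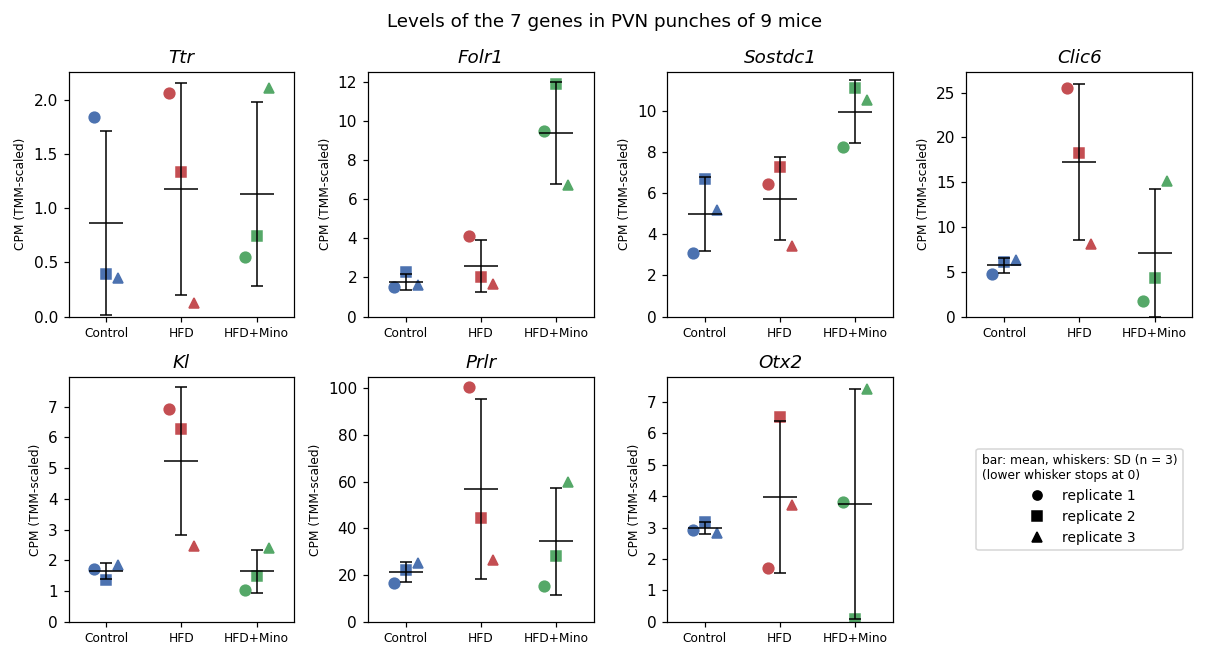
CPM (TMM-scaled) of each of the 7 genes in the 9 libraries, a point per mouse with its replicate number as the marker shape, and the group mean with its SD (n = 3). Folr1 in HFD+Mino (6.75 to 11.9) lies above every Control and HFD library, and the 3 groups overlap for Ttr.

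Ttr (Entrez Gene 22139, chr18:20664209-20674326, plus strand, GRCm38.p6) was measured at 1.84, 0.40 and 0.35 CPM in the Control libraries. It was at 2.06, 1.33 and 0.12 CPM in HFD and at 0.55, 0.74 and 2.10 CPM in HFD+Mino. The 3 groups overlapped, and the within-group spread exceeded every difference of means. The fitted difference of HFD from Control was 1.33-fold, with a 95% interval from 0.306 to 5.81, so changes of up to several-fold in either direction were not detectable. The differences of HFD+Mino from HFD (log2 −0.02, SE 0.97, FDR 0.989) and from Control (log2 0.39, SE 0.96, FDR 0.832) were as uncertain. Without Control replicate 1, which held the highest Control level, HFD exceeded Control by 1.61 on the log2 scale (FDR 0.606) and HFD+Mino exceeded Control by 1.59 (FDR 0.408).

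Folr1 (14275, chr7:101858331-101870788, minus strand), the folate receptor alpha that carries folate across the choroid plexus, stood at 1.49, 2.26 and 1.59 CPM in Control. HFD libraries had 4.12, 2.00 and 1.67 CPM, and HFD+Mino libraries had 9.52, 11.9 and 6.75 CPM. HFD+Mino lay above all other libraries, and Control and HFD overlapped. Folr1 was the only member called among the 3 groups (3-way FDR 0.00976). HFD+Mino exceeded HFD by 3.65-fold (95% interval 1.91 to 6.96, FDR 0.0135) and Control by 5.27-fold (2.73 to 10.2, FDR 0.132), while HFD exceeded Control by 1.44-fold (0.763 to 2.74, FDR 0.510). When Control and HFD+Mino samples of the same number were treated as pairs, Folr1 was called in both comparisons, at FDR 0.00516 against HFD and 0.00835 against Control. That fit called 25.6% of all genes against HFD and 3.18% against Control, beside 4.15% and 0% in the main fit. No stated design pairs these samples. The 3-way FDR of Folr1 in the main fit lay just under the threshold. Leaving out 1 library moved it to between 0.00263 and 0.0421, so that 8 of the 9 such fits lost the call. Without Control replicate 1 it was 0.0145, and HFD+Mino exceeded HFD by 1.87 on the log2 scale (FDR 0.0118).

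The level of ependymal genes was examined beside Folr1. The summed level of 8 ependymal genes was 11.9, 154 and 147 CPM per kb in Control, 315, 219 and 171 in HFD, and 692, 874 and 371 in HFD+Mino. The 3 libraries of each group stood in the same order for Folr1 as for this sum, in 3 of 3 groups. The 8 genes were higher in HFD than in Control in fitted value in 8 of 8 cases and in HFD+Mino than in Control in 8 of 8, but in HFD+Mino than in HFD in 6 of 8. None was called, beside 2.17% of all genes in the 3-way test and at most 4.15% in a pairwise one. The 2 that were lower in HFD+Mino than in HFD were Foxj1, the master regulator of motile cilia (log2 −0.53), and Ak7, an adenylate kinase gene of cilia (−0.47). Foxj1 stood at 8.66, 6.80 and 21.3 CPM in HFD+Mino. Over 9 libraries, the gene most like Folr1 was Nme5, a gene of sperm and cilia (Pearson r of log2(CPM + 1) 0.978), then Defb25 (0.975) and Bbof1, a cilium gene (0.974). Foxj1, Ak7 and these 3 genes were named after their values were seen. Avp in HFD+Mino was also highest in replicates 1 and 2. The part of ependymal lining or of PVN neurons in the Folr1 result was not tested.

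**Figure D3:**
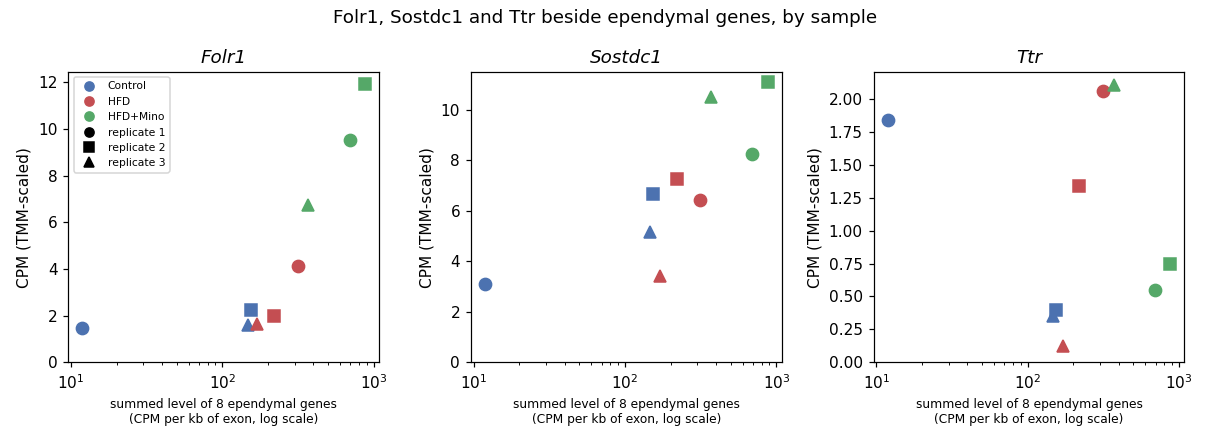
CPM of Folr1, Sostdc1 and Ttr against the summed level of 8 ependymal genes (CPM per kb of exon, log axis), a point per mouse coloured by group. Folr1 has its lowest level, 1.49 CPM, in Control replicate 1 at the lowest sum and its highest, 11.9 CPM, in HFD+Mino replicate 2 at the highest sum, and Ttr is at 1.84 CPM at the lowest sum and 0.74 CPM at the highest.

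Sostdc1 (66042, chr12:36314169-36318452), a secreted antagonist of bone morphogenetic protein and Wnt signals, came closest to Folr1 in its pattern (r 0.823). It stood at 3.10, 6.66 and 5.18 CPM in Control, 6.42, 7.28 and 3.44 CPM in HFD, and 8.25, 11.1 and 10.5 CPM in HFD+Mino. HFD+Mino lay above all Control and HFD libraries, which overlapped each other. HFD+Mino exceeded HFD by 1.75-fold (95% interval 0.982 to 3.10, FDR 0.131) and Control by 2.00-fold (1.12 to 3.56, FDR 0.178), and neither passed the test. HFD exceeded Control by 1.15-fold (0.645 to 2.03), and without Control replicate 1 the sign of that difference turned (log2 −0.06). Its most similar genes were Ribc2, a gene of ciliary microtubules (r 0.927), Sst, somatostatin (0.917), and Mblac2 (0.916), chosen after their values were seen. With the trend on exon length removed, the excess over HFD shrank from 0.80 to 0.17 on the log2 scale.

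Clic6 (209195, chr16:92498147-92541241), a member of the chloride intracellular channel family, was highest in HFD. It stood at 4.79, 6.07 and 6.30 CPM in Control, 25.5, 18.3 and 8.12 CPM in HFD, and 1.71, 4.35 and 15.2 CPM in HFD+Mino. HFD lay above Control throughout, and HFD overlapped HFD+Mino. HFD exceeded Control by 3.02-fold (95% interval 1.11 to 8.19, FDR 0.200) and HFD+Mino was 0.412 of HFD (0.153 to 1.11, FDR 0.160), and neither passed the test. Leaving out HFD+Mino replicate 3, which held the highest Clic6 level of its group, gave a call for Clic6 in the 3-way comparison (FDR 0.00721) and for a lower level in HFD+Mino than in HFD (log2 −2.51, FDR 0.00519). That fit called 18.5% of all genes 3-way and 21.4% in HFD+Mino against HFD, beside 2.17% and 4.15% in the main fit. Without Control replicate 1, HFD exceeded Control by 1.47 on the log2 scale (FDR 0.443).

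Kl (16591, chr5:150952607-150993817), klotho, is the co-receptor for FGF23 in mineral balance and is also shed into cerebrospinal fluid. Kl stood at 1.71, 1.36 and 1.85 CPM in Control, 6.93, 6.26 and 2.46 CPM in HFD and 1.03, 1.49 and 2.40 CPM in HFD+Mino. HFD lay above all other libraries, although replicate 3 of HFD exceeded replicate 3 of HFD+Mino only by 2.46 to 2.40 CPM. HFD exceeded Control by 3.17-fold (95% interval 1.51 to 6.66, FDR 0.0757), HFD+Mino was 0.316 of HFD (0.150 to 0.666, FDR 0.0301), and HFD+Mino stood at 1.00-fold of Control (0.482 to 2.08). Kl was not called in any of them, and its 3-way FDR was 0.0353. DESeq2 called Kl in the 3-way test (FDR 0.00260) and as lower in HFD+Mino than in HFD (FDR 0.00520). DESeq2 called 18.7% and 23% of all genes in those 2 tests. With the trend on exon length removed, the edgeR FDR of Kl was 0.110 in the 3-way test and 0.117 in HFD+Mino against HFD. Leaving out HFD replicate 1 or 2 gave a 3-way FDR of 0.148 or 0.144. Without Control replicate 1, HFD exceeded Control by 1.69 on the log2 scale (FDR 0.178), and the 3-way FDR was 0.0428.

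Prlr (19116, chr15:10177238-10349190), the prolactin receptor, stood at 16.5, 22.1 and 25.3 CPM in Control, 100, 44.3 and 26.3 CPM in HFD and 15.2, 28.3 and 59.8 CPM in HFD+Mino. It was the most abundant of the 7 in CPM, and its exons are the longest. Every HFD library lay above every Control library, the lowest HFD one (26.3 CPM) just above the highest Control one (25.3 CPM), and HFD overlapped HFD+Mino. HFD exceeded Control by 2.67-fold (95% interval 1.19 to 5.98, FDR 0.160) and HFD+Mino was 0.606 of HFD (0.273 to 1.34, FDR 0.322). Without HFD replicate 1 these differences moved from 1.41 to 0.73 and from −0.72 to −0.04 on the log2 scale, and with the trend on exon length removed the second was −0.10. Leaving out HFD+Mino replicate 3 took it to −1.38, and leaving out Control replicate 1 took the first to 1.25 (FDR 0.402). HFD replicate 1, the shallowest library, held the highest level of Clic6, Kl and Prlr. In the GENCODE annotation, Prlr shares 203 exonic bases with Gm21973 on the same strand. Reads there could not be assigned to 1 gene if the counting used those exons.

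Clic6, Kl and Prlr varied together over the 9 libraries, with r of 0.903 for Clic6 and Kl, 0.915 for Clic6 and Prlr and 0.822 for Kl and Prlr. In HFD all 3 genes were highest in replicate 1 and lowest in replicate 3, and in HFD+Mino all 3 were lowest in replicate 1 and highest in replicate 3. Ttr took the same order in those groups. In Control, Prlr shared the order of Clic6, rising from replicate 1 to replicate 3, and Kl and Ttr did not. Ttr was highest there in replicate 1 (1.84 CPM, against 0.40 and 0.35). Clic6, Kl and Prlr had weak or no likeness to Folr1 (−0.25 for Kl, −0.26 for Clic6, 0.11 for Prlr). Correlations over 9 libraries, which share groups and depth, are given as descriptions.

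**Figure D4:**
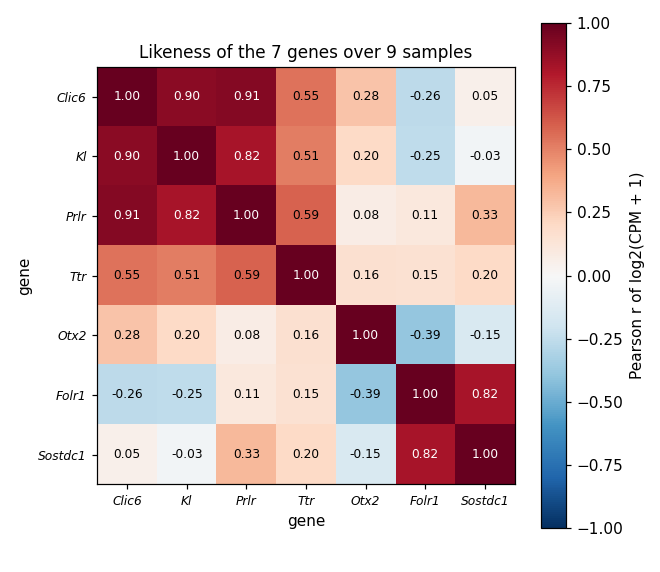
Pearson r of log2(CPM + 1) between each pair of the 7 genes over the 9 libraries, with red for positive and blue for negative values. Clic6, Kl and Prlr form a block of 0.82 to 0.91, and Folr1 and Sostdc1 form a pair at 0.82.

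The upstream sequences of Kl and Prlr are shown because these genes varied together, and that of Otx2 because OTX2, itself a member, binds DNA. The set of upstream windows used here lacked the other members and held Kl, Prlr and Otx2, 3 of the 7 genes. The 250 bases before each of their 8 annotated starts were searched for TAATCC, the core site of OTX homeodomains, on both strands. It was present in 1 of 8 windows, an internal Otx2 start, as GGATTA on the printed strand (capitals), against 6.25% of 32851 windows of the same length. Kl's window was 66.8% G and C, against 48.0% for the outermost Prlr window. The match is a description of letters, and no match says nothing of OTX2 at that gene. The 3 sequences, of GRCm38.p6 (Kl chr5:150952357-150952606 plus strand, Prlr chr15:10176988-10177237 plus strand, Otx2 chr14:48665110-48665359 minus strand), are printed 5′ to 3′.
Kl: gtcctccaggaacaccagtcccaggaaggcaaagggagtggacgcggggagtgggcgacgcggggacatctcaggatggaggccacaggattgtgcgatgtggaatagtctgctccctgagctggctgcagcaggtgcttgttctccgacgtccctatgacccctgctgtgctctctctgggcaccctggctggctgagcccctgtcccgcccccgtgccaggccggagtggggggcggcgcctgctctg
Prlr: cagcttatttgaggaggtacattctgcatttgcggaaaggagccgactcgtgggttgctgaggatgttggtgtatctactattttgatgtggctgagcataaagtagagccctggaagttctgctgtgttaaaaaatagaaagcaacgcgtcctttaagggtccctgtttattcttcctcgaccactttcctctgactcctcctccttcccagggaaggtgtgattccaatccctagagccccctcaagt
Otx2: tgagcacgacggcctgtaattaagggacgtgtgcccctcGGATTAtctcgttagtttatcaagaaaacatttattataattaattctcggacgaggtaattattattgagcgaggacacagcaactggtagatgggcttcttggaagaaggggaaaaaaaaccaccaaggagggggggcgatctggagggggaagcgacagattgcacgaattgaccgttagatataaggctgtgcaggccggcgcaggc

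Otx2 (18424, chr14:48656781-48667644, minus strand), a homeodomain factor needed for choroid plexus identity, was steady in Control at 2.93, 3.19 and 2.83 CPM. It ranged from 1.71 to 6.53 CPM in HFD (1.71, 6.53 and 3.71) and from 0.07 to 7.40 CPM in HFD+Mino (3.80, 0.07 and 7.40). HFD+Mino replicate 2 had 2 counts, the lowest count of any member in any library. The groups overlapped, and the fitted differences were 1.34-fold (95% interval 0.331 to 5.43) for HFD over Control, 0.944-fold (0.234 to 3.81) for HFD+Mino over HFD and 1.27-fold (0.313 to 5.12) for HFD+Mino over Control. Without Control replicate 1, HFD exceeded Control by 0.41 on the log2 scale (FDR 0.935). Otx2 and Ttr had an r of 0.157, and the order of the libraries within a group was that of Clic6 in 0 of 3 groups. In the GENCODE annotation, Otx2 overlaps Gm49154 on its strand and the antisense Otx2os1, each by at most 168 of its 4221 exonic bases. The RefSeq position of Otx2os1 (chr14:48669288-48793348) lies outside that of Otx2. The library kit does not mark strand. Reads in a shared part could not be told apart if the counting used the GENCODE exons.

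**Figure D5:**
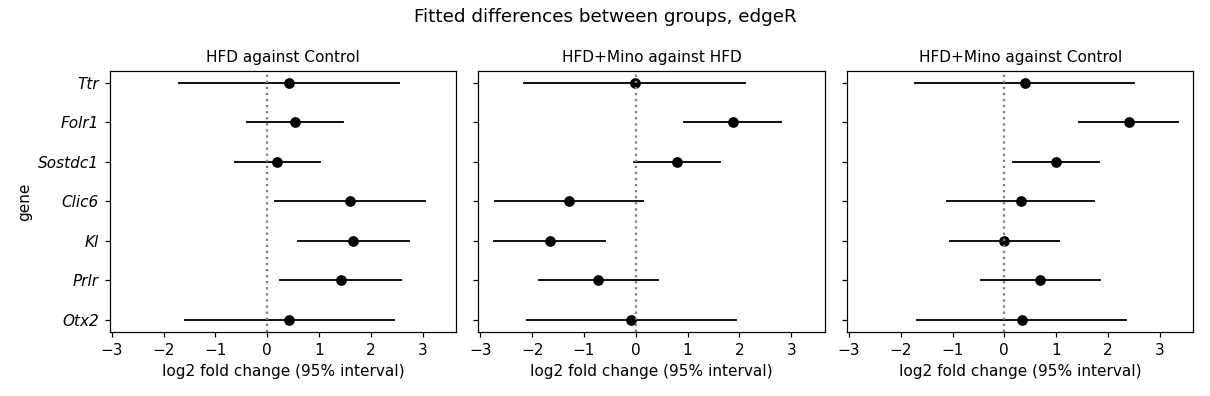
Fitted log2 fold change of each of the 7 genes (point) with its unadjusted 95% interval (line) in 3 comparisons. Folr1 lies above 0 in both comparisons with HFD+Mino (1.87 and 2.40), Kl lies above 0 in HFD against Control and below 0 in HFD+Mino against HFD, and Ttr and Otx2 span 0 in all 3.

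Likeness to Ttr was asked across all 17343 other tested genes. Prlr had the highest r of the other members, 0.587 (rank 265), then Clic6, 0.547 (360), Kl, 0.509 (468), and Sostdc1, Otx2 and Folr1 at 0.201, 0.157 (3595) and 0.150 (3719). The 10 genes most like Ttr were Lamp5 (0.936), Coch (0.919), H2-Q10 (0.894), Gm14023, Shcbp1l, Shkbp1, Slc13a1, Jsrp1, Nhlrc4 and Nmu (0.858). No other gene of the choroid plexus list was among them. Lamp5 is a gene of cortical interneurons and Coch encodes cochlin. Several of these genes, like Ttr, were near 1 CPM or below.

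Of 30 other choroid plexus genes, 23 were tested and 0 were called in any direction, beside 2.17% of all genes in the 3-way test. Their median log2 difference was 0.64 for HFD over Control, −0.15 for HFD+Mino over HFD and 0.47 for HFD+Mino over Control, against 0.00, 0.01 and −0.02 over all tested genes. Of the 30, 15 stayed under 100 counts in every library. The 4 highest per length were Enpp2, the autotaxin gene, Cab39l, Slc29a4 and Igfbp2. Enpp2 stood at 733 CPM in Control replicate 1 and at 63.5 to 254 in the others, and Igfbp2 at 62.6 CPM against 2.61 to 8.85. Both were highest in the library that lacked Avp. Lmx1a (19.3 CPM against at most 0.45) and Htr2c (102 CPM against 23.7 to 40.5), of the same list, were also highest there. Krt8 and Calml4, of that list too, were lowest there, with 0 counts. Lmx1a, Htr2c, Krt8 and Calml4 are named here after their values were seen. In Perp, Calml4 and 1500015O10Rik every HFD+Mino library lay above every Control and HFD library, as for Folr1. Their 3-way FDR was 0.0986, 0.170 and 0.0165, and they were chosen after their values were seen. For 1500015O10Rik the gap was only 5.11 CPM (HFD+Mino replicate 3) to 5.07 CPM (HFD replicate 1). Over all tested genes, groups did not overlap for 46.7% in HFD+Mino against HFD and for 19.1% in HFD+Mino against Control.

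Genes that work with the 7 were also examined, and 0 of 31 tested of 32 listed were called. Over all genes the share called was 2.17% in the 3-way test and at most 4.15% in a pairwise comparison, so a count of 0 lay near it. Their median log2 difference was −0.09 for HFD over Control and 0.06 for HFD+Mino over HFD. Of the 6 folate genes, Slc19a1, the reduced folate carrier, had log2 differences of −0.22 and 0.04 and Slc46a1, the proton-coupled folate transporter, had −0.25 and 0.31, beside 0.53 and 1.87 for Folr1. Of the Klotho partners, Fgfr1, the receptor that klotho joins, took the order of Kl: it was higher in HFD than in Control by 1.07 on the log2 scale (FDR 0.0370) and lower in HFD+Mino than in HFD (log2 −1.25, FDR 0.0115). Adam10 and Bace1, proteases that can shed klotho, were lower in HFD+Mino than in HFD, with log2 differences of −2.01 (FDR 0.0117) and −0.94 (FDR 0.0139). Fgf23, the hormone that klotho helps to bind, had log2 differences of −1.11 in HFD over Control (FDR 0.565) and 2.30 in HFD+Mino over HFD (FDR 0.108), the opposite order to Kl, and Klb, beta-klotho, had 1.25 (FDR 0.569) and 0.43 (FDR 0.800). None of these passed the threshold of 0.01. Prl, the ligand of Prlr, was not tested, with at most 0.10 CPM. Stat5b, a mediator of its receptor, had log2 differences of 1.11 in HFD over Control (FDR 0.201) and −1.78 in HFD+Mino over HFD (FDR 0.0202). Jak2, the kinase of the same receptor, had −0.93 (FDR 0.101) and 0.38 (FDR 0.355). In the same 2 comparisons Stat5a had 1.40 and −0.90, Cish −0.09 and 0.17, and Socs2 −0.39 and 1.16 (FDR 0.0186 for the second). None of the Prlr partners passed 0.01 either. These genes were picked after their values were seen.

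Markers of other cells were summed by list. Stroma and meninges stood at 11.6 to 25.7 CPM per kb in Control, 11.8 to 13.2 in HFD and 14.4 to 25.6 in HFD+Mino. Tanycytes, the ventricular glia of the hypothalamus, stood at 2.69 to 7.52, 2.85 to 4.28 and 3.42 to 3.85. Blood genes stood at 32.6 to 122, 24.3 to 57.8 and 29.0 to 190. Thalamus and habenula genes stood at 31.0 to 86.0, 16.7 to 65.9 and 13.3 to 98.4, and PVN neuron genes at 21.3 to 4205, 3975 to 6291 and 5020 to 65753. No gene of these lists was called in any comparison, beside 2.17% of all genes in the 3-way test and at most 4.15% in a pairwise one. Of these cell type lists and the ependymal one, the ependymal list was the only one whose summed level separated the 3 groups without overlap. The genes that work with the members, not a cell type list, also separated in summed level. They stood at 98.7 to 112 CPM per kb in Control, 115 to 122 in HFD and 82.1 to 95.9 in HFD+Mino. Among single genes, groups did not overlap for 35.7% in HFD against Control, 46.7% in HFD+Mino against HFD and 19.1% in HFD+Mino against Control.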

How the data were processed

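The deposited table held raw counts per gene for 9 libraries, keyed by Entrez Gene number and symbol. According to the submitters' processing notes the authors aligned reads with HISAT2 to mm10 (GRCm38) and counted them with featureCounts (versions not given), and the kit used (full-length cDNA with tagmentation) does not mark strand. How reads with several hits were counted is not given in the sources used here. The text below rests on the counts as the authors deposited them. The members and gene lists were chosen with earlier results of these data known.

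Genes passing edgeR's filterByExpr (17344) were scaled by TMM and fitted with edgeR 4.0.16 (R 4.3.3), with the 9 samples in 3 groups, and tested by the quasi-likelihood test with Benjamini-Hochberg adjustment over all tested genes. A call needs an FDR under 0.01 and a 1.5-fold change. CPM are counts scaled to the TMM-adjusted library size, and levels per kb use GENCODE exon lengths (15626 genes). Positions and upstream sequences are from RefSeq on GRCm38.p6. Named genes were the members, the 4 highest other choroid plexus genes, any called gene of the lists, and the 10 genes most like Ttr by Pearson r of log2(CPM + 1), with exceptions marked in the text. Alternatives were DESeq2 1.42.0, other size factors, no low-count filter, an FDR of 0.05, no fold threshold, Rn45s and mitochondrial genes left out, trends on exon length or GC content removed, the replicate block, and each sample left out. Total counts were 17728590 to 42326213, and the lowest CPM at which 3 counts lie was 0.0745.

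Replicate numbers 1 to 3 are those of the sample titles. The column names of the count table carry the same numbers for Control and HFD+Mino, but number the HFD samples 3, 4 and 5, so any pairing of HFD samples rests on the titles alone. Deviations from the group means of samples with the same number correlated at 0.135, 0.163 and 0.292 between Control and HFD+Mino. Samples of these groups with different numbers correlated at −0.162 to 0.0255. Control replicate 2 and HFD replicate 1, whose numbers differ, reached 0.167, so values of this size do not establish pairing. No stated design pairs the samples, and a block on these numbers is an alternative setting only. HFD samples correlated at −0.133, −0.109 and −0.00624 with Control samples of the same title number. With HFD+Mino the values were −0.152, −0.125 and −0.0522. Values this small neither establish nor exclude a pairing of the HFD samples. By column number, HFD replicate 1 would share the number 3 with replicate 3 of the others, with correlations of 0.0385 (Control) and 0.0171 (HFD+Mino). The main fit has no block.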

Additional observations from a re-analysis of the deposited data

How the results depend on the processing

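The 3-way call of Folr1 sat at its threshold. Of 357 log2 changes of members refitted under 17 settings, 321 kept their direction and their side of the threshold, 9 gained a call, and 27 turned sign, none of them called. DESeq2 called 2 members and 3237 genes 3-way, 1198 genes in HFD against Control, 2 members and 3992 genes in HFD+Mino against HFD, and 1 member and 276 genes in HFD+Mino against Control. RLE size factors gave 0 members 3-way. Without a filter on low counts, 1528 genes were called 3-way, 481 in HFD against Control, 1905 with 1 member in HFD+Mino against HFD, and 1 in HFD+Mino against Control. At an FDR of 0.05 there were 2 members and 3077 genes 3-way, 1001 genes in HFD against Control, and 2 members and 4757 genes in HFD+Mino against HFD. With the length trend removed 0 members were called 3-way and 469 genes in HFD+Mino against HFD, and with the GC trend removed 682 genes 3-way, 504 in HFD against Control and 1546 in HFD+Mino against HFD. The cause of these shifts was not tested.

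The replicate block over all samples, which takes the HFD numbers from the titles, gave 0 members 3-way and 1369 genes in HFD+Mino against HFD. The replicate block in Control and HFD+Mino alone gave 3216 genes 3-way, 1078 in HFD against Control, 4441 with 1 member in HFD+Mino against HFD, and 551 with 1 member in HFD+Mino against Control, and changed no other member call.

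Leaving out 1 sample at a time gave 0 to 2 members and 3 to 3291 genes 3-way, 59 to 550 genes in HFD against Control, 0 to 2 members and 29 to 3815 genes in HFD+Mino against HFD, and 0 to 1 member and 0 to 1120 genes in HFD+Mino against Control. The low of 3 came without HFD replicate 3 and the high of 3291 without HFD+Mino replicate 3. Without Control replicate 1 there were 0 members 3-way and 180 genes in HFD against Control.

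For HFD+Mino against HFD, the log2 change of Ttr turned to 0.031 without the filter, 0.42 with the replicate block over all samples and 0.071 without the GC trend, and that of Otx2 to 0.027 without the length trend and 0.046 without the GC trend. For HFD+Mino against Control, Kl turned to −0.0023 without the filter, and with the replicate block in those 2 groups Kl was −0.067, Clic6 −0.21 and Otx2 −0.41. With 1 sample left out, HFD against Control ran from −0.059 to 0.47 for Sostdc1, −0.25 to 1.61 for Ttr and −0.13 to 0.78 for Otx2. HFD+Mino against HFD ran from −0.83 to 0.64 for Ttr and −1.04 to 0.49 for Otx2. HFD+Mino against Control ran from −0.39 to 0.25 for Kl, −0.43 to 1.59 for Ttr, −0.92 to 0.77 for Clic6 and −0.62 to 0.91 for Otx2. Differences under several-fold in Ttr and Otx2, whose lowest counts were 5 and 2, were not detectable with 3 mice per group. Whether depth or the spread between mice set this limit was not tested.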
